A study of Mus musculus with 4 samples.

Results

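The 8 genes described here code for the core of cell death signalling from the plasma membrane and the mitochondrion: the death receptors Tnfrsf1a and Fas, the kinases Ripk1 and Ripk3, the necroptosis effector Mlkl, the protease Casp8, its regulator Cflar and the mitochondrial pore protein Bax. They were chosen by name for these roles, with earlier results of these data known. Their Ensembl identifiers were matched to symbols, and all 8 were found among the 22422 gene identifiers of the expression table. RNA was sequenced from the distal colon of 2 Elf4fl/fl-Villin-Cre samples and 2 wild-type samples (WT), with 1 library each. The Elf4fl/fl-Villin-Cre mice carry a floxed Elf4 gene and Cre recombinase under the Villin promoter, which is active in intestinal epithelium; the alleles of the wild-type mice are not stated. Both groups were female mice of 6 weeks that had received 2% dextran sulfate sodium (DSS), a compound that injures the colonic epithelium, for 5 days, and no mice without DSS are among the samples. The series design names C57BL/6 for all mice, whereas C57BL/8 stands as the strain in the labels of the 2 Elf4fl/fl-Villin-Cre samples. Nothing in the labels says that the 2 samples of a group came from separate animals, so p-values refer to the spread among these 4 samples alone, and part of that spread may be technical.

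When tumour necrosis factor binds its receptor Tnfrsf1a, or Fas ligand binds Fas, adaptor proteins gather on the receptor tail and can bring together Ripk1, the adaptor Fadd and Casp8. Active Casp8 starts apoptosis by cutting further caspases and also cuts Ripk1 and Ripk3; Cflar, which resembles Casp8 but lacks its protease activity, joins with it and sets how far it is activated. Where Casp8 activity fails, Ripk3 phosphorylates Mlkl, which then breaks the plasma membrane, a death called necroptosis, and mice that lack Casp8 or Fadd in the intestinal epithelium are known to lose epithelial cells in this way. Bax acts in a mitochondrial branch, in which it and its relative Bak1 open the outer mitochondrial membrane and release cytochrome c. Elf4 is a transcription factor of the ETS family, whose members bind DNA around the core GGAA.

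Values are normalised reads, which are read counts divided by 1 scaling factor for each library and not by gene length, and they are given for replicate 1 and then replicate 2 of each genotype. The 4 libraries held 15885028 to 16425954 reads, and each of the 8 genes had 312 to 3966 reads in every library. Elf4 itself had 897 and 758 normalised reads in Elf4fl/fl-Villin-Cre colon and 1588 and 1938 in wild-type colon, a log2 fold change of -1.09 ± 0.16 (SE; limma, adjusted p = 0.0139); which exons are floxed is not stated, and the tissue holds cells in which the Villin promoter is silent. Markers of colonic epithelium were present, while those of small intestine came to 10.9 to 28.5 normalised reads in all in Elf4fl/fl-Villin-Cre and 49.4 to 64.3 in wild-type colon, with the lactase gene Lct at 0 in wild-type replicate 2. Cell type markers differed between the genotypes. For these markers, fell and rose mean an adjusted p under 0.05 in limma. Over all genes tested, 8.6% fell and 6.86% rose by that threshold. All 10 epithelial markers fell, with a summed level of 101019 and 126699 normalised reads in Elf4fl/fl-Villin-Cre and 305921 and 370014 in wild-type colon. All 9 macrophage and monocyte markers rose, with sums of 34812 and 23420 in Elf4fl/fl-Villin-Cre and 14184 and 11928 in wild-type colon. Of 7 neutrophil markers, 6 rose, and the list's median was 3.26 (log2 fold change); the exception was Ly6g, which made up most of the list's sums of 15129 and 16571 in Elf4fl/fl-Villin-Cre and 13691 and 14068 in wild-type colon. Of the other lists, 4 of 5 erythroid, 2 of 6 fibroblast, 1 of 5 endothelial and 1 of 6 B and plasma cell markers rose, 1 of 5 smooth muscle markers and 2 of 4 markers of colonic epithelium fell, and 0 of 8 T and NK cell markers passed the test in limma or edgeR (1 rose at an unadjusted p under 0.05 in limma). In such bulk tissue, fewer cells of a type and less RNA per cell cannot be told apart.

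Of the 8 death genes, Mlkl and Casp8 were lower in Elf4fl/fl-Villin-Cre colon, Bax was higher, and Tnfrsf1a, Fas, Ripk1, Ripk3 and Cflar did not pass the test. Mlkl was 1.99-fold lower and Casp8 1.59-fold lower by group means, and Bax was 1.63-fold higher. The threshold was an adjusted p under 0.05 in limma's moderated test on log2(value + 1), fitted to 22050 genes with a mean of at least 1 normalised read and adjusted by the Benjamini-Hochberg method over all of them; all 8 genes passed that filter. In the same test 8.6% of all genes were lower and 6.86% higher. With edgeR's quasi-likelihood test on the recovered read counts, Ripk3 was called lower as well, giving 3 of the 8 lower and 1 higher, where 13.5% of 17337 genes were lower and 9.88% higher. Values of the 2 genotypes did not overlap for 6 of the 8 genes, and for 62.2% of all genes tested. The median log2 fold change was -0.02 over the 8 genes and 0.11 over all genes tested. Within the Elf4fl/fl-Villin-Cre group, replicate 1 was the higher library for 8 of the 8 genes, and within wild type for 6 of the 8. Leaving out any 1 of the 4 libraries left limma with no call for any gene, these 8 included. The log2 fold changes in limma were then -1.21 to -0.80 for Mlkl, -0.84 to -0.52 for Casp8 and 0.55 to 0.84 for Bax.

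**Figure D1:**
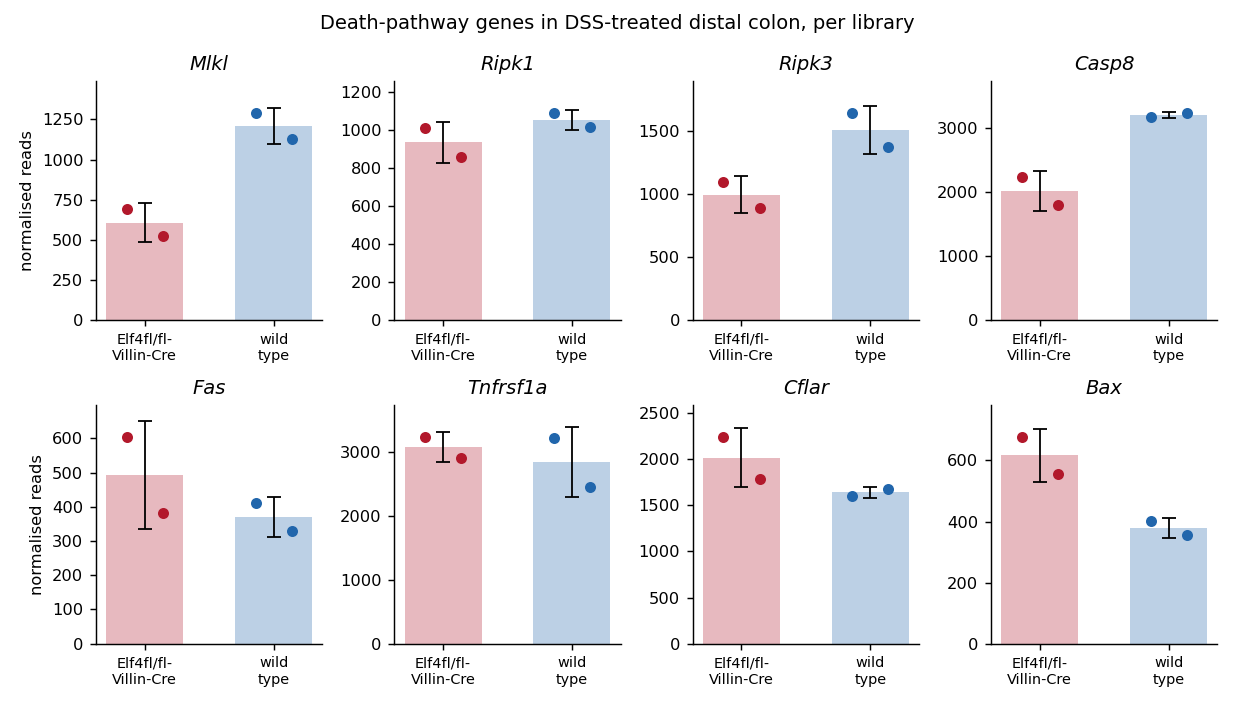
Normalised reads (y axis, linear from 0) of the 8 genes in each library, with Elf4fl/fl-Villin-Cre at the left and wild type at the right of each panel; points are libraries, replicate 1 left of replicate 2, bars are means and whiskers are 1 SD (n = 2). Mlkl and Casp8 stand lower and Bax higher in Elf4fl/fl-Villin-Cre colon with no overlap, while Fas and Tnfrsf1a overlap.

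The promoters of the 3 genes that passed the test and of Ripk3, the kinase upstream of Mlkl, are shown because Elf4 belongs to a family with a known DNA core. Each is 300 bases long, from 250 before to 50 after a transcription start given by RefSeq (GRCm38.p6), printed 5′ to 3′ on the strand of the gene, and capitals mark GGAA on either strand (TTCC is its reverse complement). They lie at chr8:111338156-111338455 on the minus strand for Mlkl, chr14:55788808-55789107 on the minus strand for Ripk3, chr1:58802252-58802551 on the plus strand for Casp8 and chr7:45466849-45467148 on the minus strand for Bax; that of Casp8 lies inside the annotated gene, at a start downstream of the gene's first base.
Mlkl: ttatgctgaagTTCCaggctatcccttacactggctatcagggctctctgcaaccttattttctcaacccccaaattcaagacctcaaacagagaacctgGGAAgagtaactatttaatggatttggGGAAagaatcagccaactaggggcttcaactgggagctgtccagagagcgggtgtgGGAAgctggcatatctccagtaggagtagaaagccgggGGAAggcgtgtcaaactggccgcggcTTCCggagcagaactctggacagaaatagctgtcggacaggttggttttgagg
Ripk3: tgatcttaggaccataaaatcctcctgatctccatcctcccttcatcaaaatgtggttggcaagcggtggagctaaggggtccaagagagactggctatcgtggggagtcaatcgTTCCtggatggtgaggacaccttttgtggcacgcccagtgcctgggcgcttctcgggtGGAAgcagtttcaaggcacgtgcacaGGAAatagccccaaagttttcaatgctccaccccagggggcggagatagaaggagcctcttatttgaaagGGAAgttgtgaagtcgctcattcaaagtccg
Casp8: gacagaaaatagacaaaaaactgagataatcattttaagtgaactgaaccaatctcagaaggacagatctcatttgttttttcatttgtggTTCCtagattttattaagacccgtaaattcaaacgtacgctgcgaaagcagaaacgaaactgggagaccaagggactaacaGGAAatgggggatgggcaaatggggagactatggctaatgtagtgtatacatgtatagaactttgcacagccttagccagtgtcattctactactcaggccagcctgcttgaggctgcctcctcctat
Bax: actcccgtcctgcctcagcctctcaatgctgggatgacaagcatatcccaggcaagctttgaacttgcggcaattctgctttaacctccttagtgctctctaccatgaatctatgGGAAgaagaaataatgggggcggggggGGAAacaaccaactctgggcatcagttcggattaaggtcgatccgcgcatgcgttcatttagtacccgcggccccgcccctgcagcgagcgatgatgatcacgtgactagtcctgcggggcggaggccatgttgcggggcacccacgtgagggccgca
The GGAA core occurred 6 times in the Mlkl promoter, 4 times in that of Ripk3 and 2 times each in those of Casp8 and Bax. The core was found in 9 of the 9 promoters listed for the 8 genes (Ripk1 has 2), but also in 96.0% of the 32851 promoters of the table, with a median of 3 per promoter. The longer ETS sequence CCGGAAGT, searched on both strands as an exact match, was in 0 of the 9 and in 3.89% of all promoters. Sites that differ from it in any base were not counted. The kappaB consensus, also searched on both strands, was in 0 of the 9 and in 8.46% of all. The half-site consensus of p53, a known inducer of Bax, matched 1 of the 9 promoters, that of Bax itself, as AGGCAAGCTT 201 bases before the start at chr7:45467090-45467099, and 8.36% of all promoters held a match. These matches describe the letters of the windows only.

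Among the receptors, Tnfrsf1a (ENSMUSG00000030341.17, mm10 chr6:125349362-125362484, plus strand; all gene positions here are of mm10), which receives tumour necrosis factor, had 3229.9 and 2905 normalised reads in Elf4fl/fl-Villin-Cre and 3217 and 2451 in wild-type colon. The ranges overlapped, with wild-type replicate 2 the lowest and the other 3 libraries close together. Its log2 fold change was 0.13 ± 0.17 (SE; 95% interval -0.30 to 0.55; limma, adjusted p = 0.662), but limma gave -0.07 when wild-type replicate 2 was left out. Fas (ENSMUSG00000024778.12, chr19:34290666-34327772, plus strand), the receptor of Fas ligand, had 604 and 380.4 normalised reads in Elf4fl/fl-Villin-Cre and 411 and 329 in wild-type colon. Here the 2 Elf4fl/fl-Villin-Cre libraries lay on either side of wild-type replicate 1, and replicate 1 of the Elf4fl/fl-Villin-Cre group was 1.59 times replicate 2, the widest replicate gap among the 8 genes. The log2 fold change was 0.38 ± 0.25 (SE; 95% interval -0.23 to 0.996; limma, adjusted p = 0.345); edgeR gave -0.0030 when replicate 1 of Elf4fl/fl-Villin-Cre was dropped. For both receptors the interval spans 0.

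Of the kinases, Ripk1 (ENSMUSG00000021408.15, chr13:34002363-34037147, plus strand), which both relays survival signals and starts death complexes, had 1012 and 859 normalised reads in Elf4fl/fl-Villin-Cre and 1090 and 1015 in wild-type colon. The 4 values lay close together, the nearest libraries of the 2 genotypes being 1012 and 1015. The log2 fold change was -0.17 ± 0.14 (SE; 95% interval -0.52 to 0.17; limma, adjusted p = 0.446), and scaling by library totals turned it to 0.14. Ripk1 shares 241 exon bases with Serpinb6a on the opposite strand, which averaged 6202 normalised reads, and 511 with the processed pseudogene Gm17084 on the same strand, which was not analysed here. Its reads are therefore uncertain, and no strand setting would separate those of the pseudogene. Ripk3 (ENSMUSG00000022221.13, chr14:55784995-55788865, minus strand), the kinase that activates Mlkl, had 1095 and 888 normalised reads in Elf4fl/fl-Villin-Cre and 1641 and 1371 in wild-type colon. Both Elf4fl/fl-Villin-Cre libraries were below both wild-type libraries. Its log2 fold change of -0.60 ± 0.17 (SE; 95% interval -1.01 to -0.20) missed the threshold in limma (adjusted p = 0.0599) and met it in edgeR (adjusted p = 0.0409) and DESeq2 (adjusted p = 0.0111); leaving out a library, edgeR kept the call only when replicate 1 of Elf4fl/fl-Villin-Cre was dropped (adjusted p = 0.0386), with adjusted p up to 0.141 otherwise.

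The second of the 2 Ripk1 promoters held 10 GGAA cores and 3 matches to the motifs of interferon signalling, and its part at chr13:34002759-34002888 (plus strand, RefSeq, GRCm38.p6, 130 bases) is shown for the way these lie together, with capitals marking the matches.
Ripk1: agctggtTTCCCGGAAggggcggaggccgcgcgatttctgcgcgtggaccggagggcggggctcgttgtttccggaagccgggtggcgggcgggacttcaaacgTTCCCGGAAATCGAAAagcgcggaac
The gamma-activated site consensus, TTCNNNGAA, matched at chr13:34002766-34002774 and at chr13:34002863-34002871, both as TTCCCGGAA. The core of the interferon-stimulated response element, GAAA and GAAA on 1 strand separated by 2 bases, matched as GAAATCGAAA at chr13:34002869-34002878 and overlapped the second of them. This window and the Tnfrsf1a promoter lie inside the annotated genes, downstream of the gene's first base. Across the 9 promoters of the 8 genes, the gamma-activated site consensus was in 3 (Ripk1, Tnfrsf1a and Fas), against 8.30% of all promoters. The response element was in 2 (Ripk1 and Cflar), against 3.44% of all. These counts are small, and any bearing of the matches on the expression of these genes was not tested.

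Mlkl (ENSMUSG00000012519.14, chr8:111311797-111338177, minus strand), the pseudokinase that breaks the membrane in necroptosis, showed the largest change of the 8 genes. It had 691 and 522 normalised reads in Elf4fl/fl-Villin-Cre and 1289 and 1129.6 in wild-type colon. Both Elf4fl/fl-Villin-Cre libraries were far below both wild-type libraries, and replicate 1 was the higher of each pair. It averaged 607 ± 120.0 in Elf4fl/fl-Villin-Cre and 1209 ± 113 in wild-type colon (SD, n = 2 each), with a log2 fold change of -1.01 ± 0.18 (SE; 95% interval -1.44 to -0.57; limma, adjusted p = 0.0194; edgeR, adjusted p = 0.0138). Leaving out 1 library at a time, edgeR called Mlkl lower in 4 of 4 fits, with log2 fold changes of -1.26 to -0.84 and an adjusted p of at most 0.0487, whereas the adjusted p in limma was 0.126 to 0.226.

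Casp8 (ENSMUSG00000026029.14, chr1:58795374-58847503, plus strand), the initiator caspase that holds necroptosis in check, had 2239.6 and 1791 normalised reads in Elf4fl/fl-Villin-Cre and 3170.0 and 3235 in wild-type colon. The wild-type libraries were nearly equal and both above the Elf4fl/fl-Villin-Cre libraries, which were further apart. Casp8 averaged 2015 ± 317 in Elf4fl/fl-Villin-Cre and 3202 ± 45.9 in wild-type colon (SD, n = 2 each), with a log2 fold change of -0.68 ± 0.15 (SE; 95% interval -1.05 to -0.30; limma, adjusted p = 0.0358; edgeR, adjusted p = 0.0292). With 1 library dropped, edgeR kept the call in the absence of replicate 1 of Elf4fl/fl-Villin-Cre and lost it in the absence of its replicate 2 (adjusted p = 0.108), wild-type replicate 1 (adjusted p = 0.0712) or wild-type replicate 2 (adjusted p = 0.102); it was also lost in limma with library totals (log2 fold change -0.36, adjusted p = 0.155) and quantile scaling (-0.38, adjusted p = 0.184). Cflar (ENSMUSG00000026031.15, chr1:58711508-58758884, plus strand), which lies next to Casp8 on the chromosome and codes for the c-FLIP protein that pairs with it, had 2241 and 1787 normalised reads in Elf4fl/fl-Villin-Cre and 1598 and 1679 in wild-type colon. The groups did not overlap, with Elf4fl/fl-Villin-Cre replicate 1 standing above the other 3 libraries. The log2 fold change was 0.29 ± 0.15 (SE; 95% interval -0.09 to 0.66; limma, adjusted p = 0.253); with library totals it was 0.61 and passed the threshold (limma, adjusted p = 0.0453).

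Bax (ENSMUSG00000003873.11, chr7:45461697-45466898, minus strand) was the gene that rose. It had 678 and 556 normalised reads in Elf4fl/fl-Villin-Cre and 402 and 356 in wild-type colon. Both Elf4fl/fl-Villin-Cre libraries were above both wild-type libraries, and replicate 1 was the higher of each pair. Bax averaged 617 ± 86.0 in Elf4fl/fl-Villin-Cre and 379 ± 32.6 in wild-type colon (SD, n = 2 each), with a log2 fold change of 0.70 ± 0.16 (SE; 95% interval 0.30 to 1.09; limma, adjusted p = 0.0389; edgeR, adjusted p = 0.0328). With 1 library dropped, edgeR kept the call in the absence of replicate 2 of Elf4fl/fl-Villin-Cre and lost it in the absence of its replicate 1 (adjusted p = 0.169), wild-type replicate 1 (adjusted p = 0.0696) or wild-type replicate 2 (adjusted p = 0.135), and with quantile scaling the adjusted p in limma was 0.0578. Bax shares 192 exon bases with the overlapping model Gm45808 on the same strand, which was not analysed here, and how shared reads were counted is not stated.

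**Figure D2:**
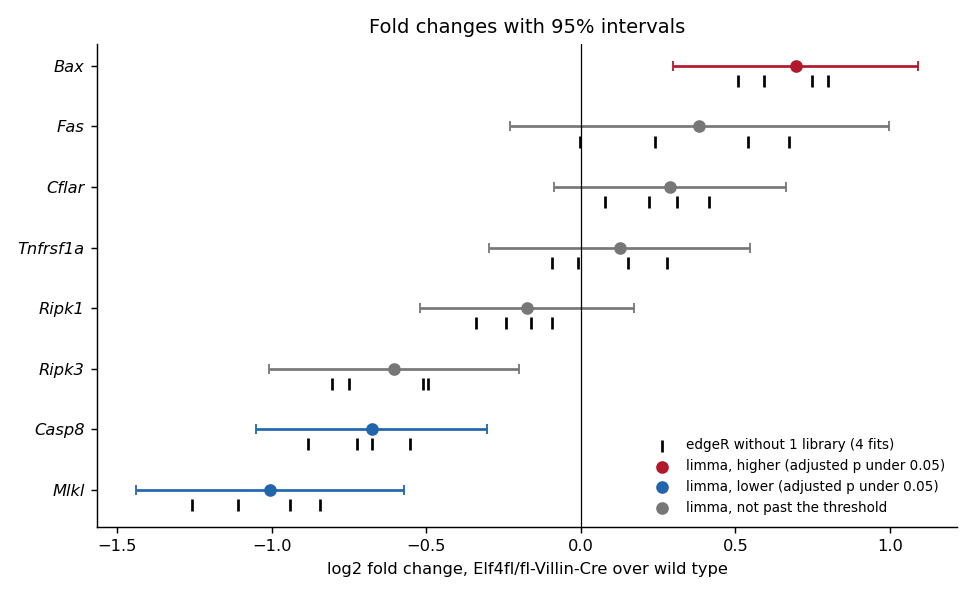
Log2 fold change of each gene (x axis, Elf4fl/fl-Villin-Cre over wild type) with its 95% interval from limma over 4 libraries; colour marks the genes past an adjusted p of 0.05, and the black ticks under each point are edgeR's estimates without 1 library. The ticks of Mlkl, Casp8, Ripk3 and Ripk1 stay below 0 and those of Bax and Cflar above it, while those of Fas and Tnfrsf1a lie on both sides.

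Levels of the 8 genes were also set against the summed epithelial and macrophage markers of each library. Per 1000 epithelial marker reads, Mlkl came to 6.84 and 4.12 in Elf4fl/fl-Villin-Cre and 4.21 and 3.05 in wild-type colon, with overlapping groups. On the same scale Casp8 was at 22.2 and 14.1 in Elf4fl/fl-Villin-Cre against 10.4 and 8.74 in wild-type colon, and Bax at 6.71 and 4.39 against 1.32 and 0.963. Per 1000 macrophage and monocyte marker reads, Mlkl came to 19.9 and 22.3 in Elf4fl/fl-Villin-Cre and 90.9 and 94.7 in wild-type colon, and Casp8 to 64.3 and 76.5 against 223 and 271. Bax was then at 19.5 and 23.7 against 28.4 and 29.9. Such a division rescales every gene of a library alike. Epithelial sums were 2.97-fold lower and macrophage sums 2.23-fold higher in Elf4fl/fl-Villin-Cre colon, and the group means of each of the 8 genes differed by less. The means of all 8 were thus higher on the epithelial scale and lower on the macrophage scale. Only the groups of Mlkl overlapped, on the epithelial scale. The part of cell makeup in the changes of Mlkl, Casp8 and Bax was not tested.

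A ratio of 2 genes within a library does not depend on how libraries were scaled, and shows unequal change without showing which gene moved. The ratio of Cflar to Casp8 reads was 1.001 and 0.998 in Elf4fl/fl-Villin-Cre and 0.504 and 0.519 in wild-type colon. The replicates of each genotype were almost equal, and the ratio was 1.95-fold higher in Elf4fl/fl-Villin-Cre colon, a log2 difference of 0.97 with a pooled SD between replicates of 0.021. The ratio of Mlkl to Bax was 1.02 and 0.938 in Elf4fl/fl-Villin-Cre and 3.20 and 3.17 in wild-type colon, 3.26-fold lower (log2 difference -1.70, pooled SD 0.061). A pooled SD from 2 libraries per genotype is itself uncertain, so such near equality of replicates may not hold in further samples. Along the necroptosis chain the ratio of Ripk3 to Ripk1 was 1.08 and 1.03 in Elf4fl/fl-Villin-Cre and 1.51 and 1.35 in wild-type colon (log2 difference -0.43, pooled SD 0.085). That of Mlkl to Ripk3 was 0.631 and 0.588 in Elf4fl/fl-Villin-Cre against 0.786 and 0.824 in wild-type colon (log2 difference -0.40, pooled SD 0.062). In both pairs the downstream gene was lower relative to the upstream one in Elf4fl/fl-Villin-Cre colon.

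For the mitochondrial branch, the ratio of Bax to Bcl2l1, an anti-apoptotic relative that binds it, was 0.624 and 0.462 in Elf4fl/fl-Villin-Cre and 0.285 and 0.252 in wild-type colon (log2 difference 1.005, pooled SD 0.23). Bax against Bak1, the other pore-forming gene, gave 0.590 and 0.483 in Elf4fl/fl-Villin-Cre and 0.165 and 0.160 in wild-type colon (log2 difference 1.72, pooled SD 0.15). Ripk1 against the adaptor Tradd gave 1.48 and 1.12 in Elf4fl/fl-Villin-Cre and 0.579 and 0.527 in wild-type colon (log2 difference 1.22, pooled SD 0.21). The Bax to Bak1 and Ripk1 to Tradd pairs were chosen after their values were seen. None of these ratios overlapped between genotypes, and each had p = 0.333 in an exact two-sided permutation test over the 4 libraries, also after adjustment over the 8 ratios computed, which is the smallest p that 2 against 2 samples allow.

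**Figure D3:**
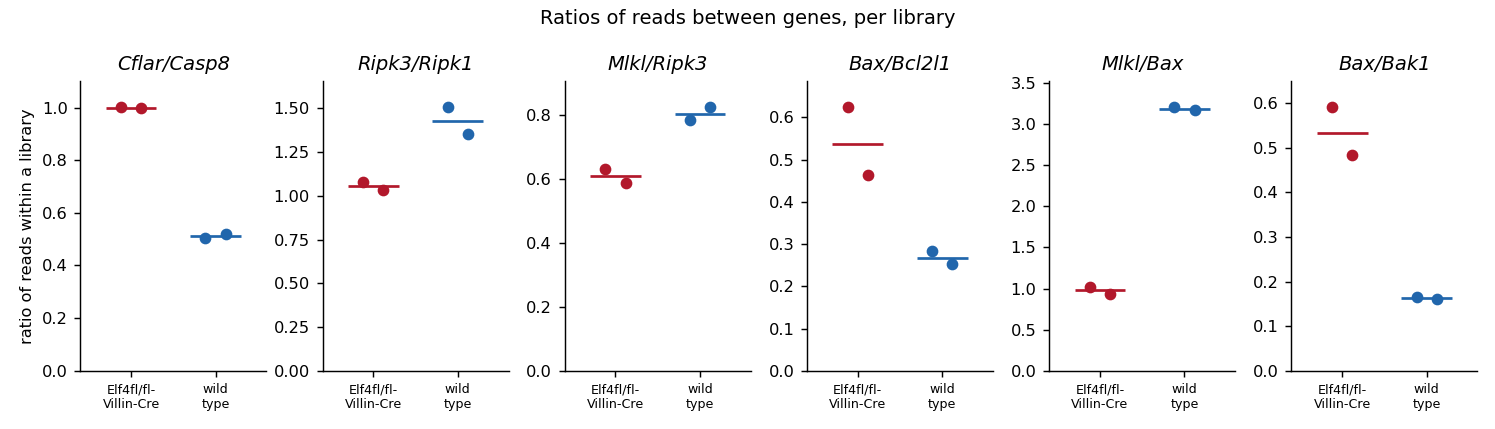
Ratio of reads between 2 genes within each library (y axis, linear from 0), Elf4fl/fl-Villin-Cre left and wild type right; points are libraries and lines are geometric means (n = 2). The Cflar to Casp8 ratio is 1.001 and 0.998 in Elf4fl/fl-Villin-Cre, against 0.504 and 0.519 in wild type, and the Mlkl to Bax ratio is 1.02 and 0.938 against 3.20 and 3.17.

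Levels of different genes were compared per kb of merged exon. In Elf4fl/fl-Villin-Cre colon the order of mean level was Tnfrsf1a (1184 normalised reads per kb), Casp8 (697), Ripk3 (433), Bax (391), Mlkl (263), Fas (239), Cflar (159) and Ripk1 (112). In wild-type colon it was Casp8 (1107 normalised reads per kb), Tnfrsf1a (1094), Ripk3 (657), Mlkl (525), Bax (241), Fas (179), Cflar (129) and Ripk1 (126). Casp8 and Tnfrsf1a, and likewise Mlkl and Bax, thus stood in opposite order in the 2 genotypes. Neighbours whose libraries overlapped were Ripk3 with Bax and Mlkl with Fas in Elf4fl/fl-Villin-Cre colon, and Casp8 with Tnfrsf1a and Cflar with Ripk1 in wild-type colon. The low places of Cflar and Ripk1 come with merged exon lengths of 12.669 and 8.344 kb, against 1.576 to 2.893 kb for the others, which include long exons that not every transcript carries.

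**Figure D4:**
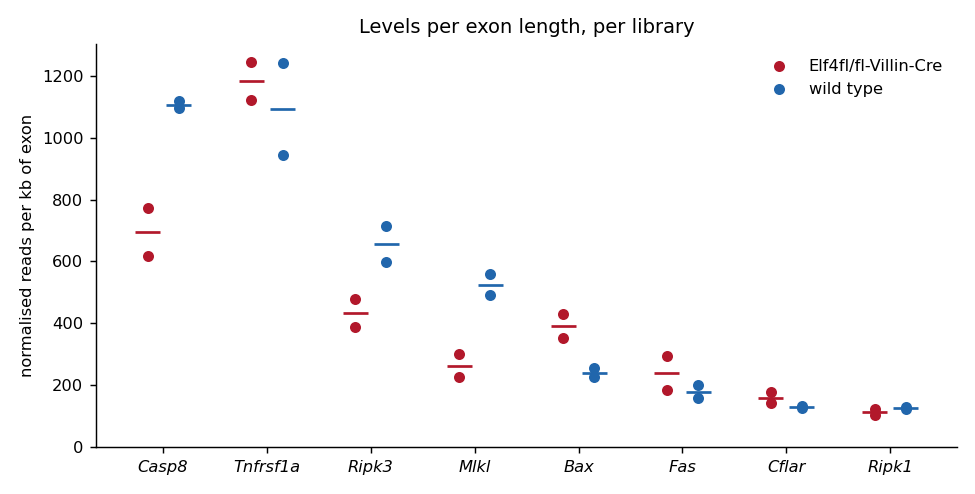
Normalised reads per kb of merged exon (y axis, linear from 0) of the 8 genes in order of the wild-type mean; points are libraries and short lines are means (n = 2), Elf4fl/fl-Villin-Cre left of wild type for each gene. Casp8, Ripk3 and Mlkl are lower and Bax is higher in Elf4fl/fl-Villin-Cre colon, with Tnfrsf1a and Casp8 the 2 most abundant in both genotypes.

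To find genes with a like pattern, the log2 value of each gene was centred on its mean over the 4 libraries and compared among the 8 genes and 92 other death-pathway genes by the root mean square difference. Mlkl was nearest to Bak1 (0.147) and to Tlr3 (0.151), the receptor for double-stranded RNA. Ripk3 was nearest to Rbck1 (0.0943) and Bid (0.0955), and Casp8 to Casp9 (0.0887) and to Ripk3 (0.109). Bax was nearest to Birc2 (0.0899) and Tnfsf12 (0.105), and Cflar to Bcl2l11 (0.0929) and Ikbkb (0.0941). Ripk1 was nearest to Traf2 (0.0314) and Tnip1 (0.0558), Fas to Ikbke (0.0829) and Bmf (0.134), and Tnfrsf1a to Htra2 (0.0797) and Parp1 (0.0947). Among the 8 genes themselves Ripk3 and Casp8 were the closest pair, and Mlkl and Bax the most distant (0.852). With 4 points that share their libraries and scaling, these are descriptions of likeness and no more.

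Around the 8 genes, 92 further death-pathway genes were tested in 8 lists by role, chosen with earlier results of these data known. Of the 92, 15 (16.3%) fell and 3 (3.26%) rose, and their median was -0.12 (log2 fold change). Over all genes tested, 8.6% fell and 6.86% rose, and the median was 0.11. With library totals, which moved the median of all genes up by 0.30, 9 of the 92 were lower and 18 higher in limma. Over all genes, 1194 were then lower and 4114 higher, against 1897 and 1512. Of the 11 death ligands and receptors, 1 rose and none fell in limma (none fell in edgeR either, and 1 did at an unadjusted p under 0.05 in limma). The gene that rose was Tnfrsf12a, the receptor of the ligand TWEAK, with 1049.8 and 1192 normalised reads in Elf4fl/fl-Villin-Cre against 591 and 576 in wild-type colon (log2 fold change 0.94, limma, adjusted p = 0.0132). The ligand Tnf had 336 and 298 in Elf4fl/fl-Villin-Cre and 225 and 573 in wild-type colon, with overlapping groups. Of the 23 adaptors, ubiquitin enzymes and kinases of the TNF receptor complexes, 4 fell. Tradd, the first adaptor of Tnfrsf1a, had 686 and 765 normalised reads in Elf4fl/fl-Villin-Cre against 1881 and 1925 in wild-type colon (log2 fold change -1.39, limma, adjusted p = 0.00792). Spata2, which links the deubiquitinase Cyld to the complex, fell by 1.04 on the log2 scale (limma, adjusted p = 0.016). Fadd, which brings Casp8 to the receptors, fell by 0.78 (limma, adjusted p = 0.0293), and Rnf31, the catalytic part of the linear ubiquitin ligase, fell by 0.82 (limma, adjusted p = 0.0392). With 1 library dropped, edgeR called Tradd, Spata2 and Tnfrsf12a in 4 of 4 fits, Rnf31 in 3 (not without wild-type replicate 1, adjusted p = 0.0536) and Fadd in 0 (adjusted p = 0.0623 to 0.0739).

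Among 11 other inputs and regulators of necroptosis 2 fell, a receptor for double-stranded RNA and the adaptor that links it to Ripk3. Tlr3 had 389 and 354 normalised reads in Elf4fl/fl-Villin-Cre against 822 and 850.3 in wild-type colon (log2 fold change -1.17, limma, adjusted p = 0.00965). Ticam1, its adaptor, had 308 and 337 in Elf4fl/fl-Villin-Cre against 655 and 644 in wild-type colon (log2 fold change -1.01, limma, adjusted p = 0.0119). Both were called in 4 of 4 edgeR fits without 1 library. Zbp1, the nucleic acid sensor that also activates Ripk3, was abundant, at 4426 and 4060.2 normalised reads in Elf4fl/fl-Villin-Cre and 8255 and 5913 in wild-type colon. Its log2 fold change of -0.72 missed the threshold in limma (adjusted p = 0.0579) and met it in edgeR (adjusted p = 0.0409).

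In the mitochondrial branch, genes of the BCL-2 family differed in direction. Of the 9 effector and BH3-only genes tested 1 fell, Bak1, with 1147 and 1151 normalised reads in Elf4fl/fl-Villin-Cre against 2434 and 2229 in wild-type colon (log2 fold change -1.02, limma, adjusted p = 0.0102). Bax and Bak1, which do the same work, thus moved in opposite directions, and the Bak1 call held in 4 of 4 edgeR fits without 1 library. Of the 7 anti-apoptotic genes 2 rose in limma and 4 in edgeR, the 2 of limma included. Bcl2a1d had 293 and 231 normalised reads in Elf4fl/fl-Villin-Cre against 102 and 62.2 in wild-type colon (log2 fold change 1.70, limma, adjusted p = 0.0178), and Bcl2a1b had 162 and 114 against 64.8 and 40.04 (log2 fold change 1.40, limma, adjusted p = 0.0392). These genes, known from leukocytes, are near-identical paralogs whose reads the counting may have split, and without wild-type replicate 2 edgeR called neither (adjusted p = 0.0536 and 0.133). Bcl2a1b was also lost when replicate 1 of Elf4fl/fl-Villin-Cre was dropped (edgeR, adjusted p = 0.104), leaving it called in 2 of 4 fits. Of the 8 genes of mitochondrial release and the apoptosome, 4 fell: Cycs, cytochrome c itself, fell by 0.88 on the log2 scale (limma, adjusted p = 0.0136), the channel genes Vdac2 and Vdac1 by 0.94 and 0.73 (limma, adjusted p = 0.0156 and 0.0452), and Aifm1, a flavoprotein of the intermembrane space, by 0.89 (limma, adjusted p = 0.0252). Cycs was called in 4 of 4 edgeR fits without 1 library, while the other 3 calls were lost when wild-type replicate 2 was dropped (edgeR, adjusted p = 0.056 for Vdac2, 0.129 for Vdac1 and 0.0704 for Aifm1), and that of Vdac1 also when replicate 1 of Elf4fl/fl-Villin-Cre was dropped (adjusted p = 0.147).

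Of the 11 other caspases, substrates and inhibitors, 3 fell and none rose (limma; none rose in edgeR or at an unadjusted p under 0.05 in limma either). Casp2 (log2 fold change -0.55, limma, adjusted p = 0.0405) and Casp9, the caspase of the apoptosome (-0.65, limma, adjusted p = 0.0486), were called in 0 and 1 of the 4 edgeR fits without 1 library, with adjusted p of up to 0.129 and 0.136. Of 12 genes of p53 and its targets 1 fell and none rose in limma or in edgeR. At an unadjusted p under 0.05 in limma, 3 of them fell and 2 rose. With library totals limma called 5 of the 12 higher and 1 lower. Over all genes, 4114 were then higher and 1194 lower, against 1512 and 1897 without that scaling. The 1 that fell was Perp, a membrane protein of epithelial junctions, with 1463 and 2406 normalised reads in Elf4fl/fl-Villin-Cre against 4767 and 5823 in wild-type colon (log2 fold change -1.49, limma, adjusted p = 0.0181; without wild-type replicate 2, edgeR, adjusted p = 0.0609). Trp53 had 773 and 689 in Elf4fl/fl-Villin-Cre and 543 and 496 in wild-type colon, a log2 fold change of 0.49 that missed the threshold (limma, adjusted p = 0.0666). Cdkn1a, the usual readout of p53, had 2626 and 2337 in Elf4fl/fl-Villin-Cre and 3176 and 3908 in wild-type colon (log2 fold change -0.51, limma, adjusted p = 0.0829). The part of the lower epithelial and higher leukocyte marker levels in these lists was not tested.

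**Figure D5:**
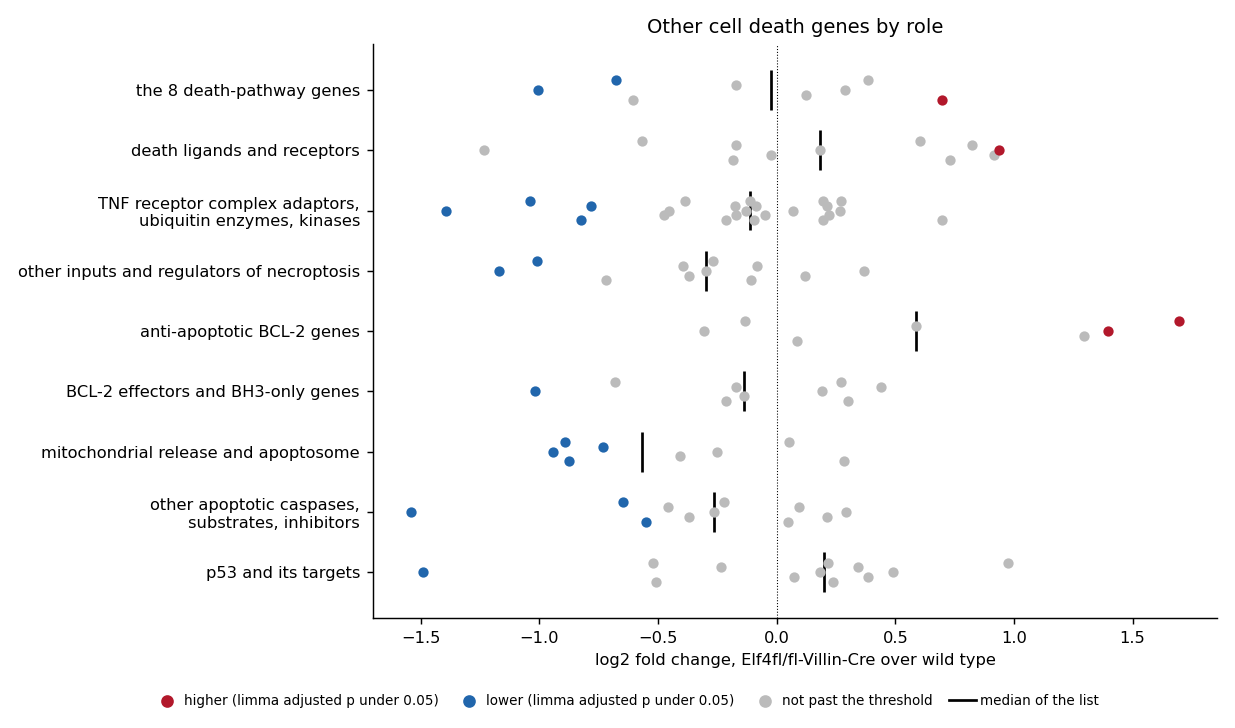
Log2 fold change (x axis, Elf4fl/fl-Villin-Cre over wild type) of the 8 genes in the top line and of 92 other death-pathway genes by role; each point is a gene, colour marks an adjusted p under 0.05 in limma, and black bars are list medians. The coloured points of the adaptor, necroptosis input, effector and BH3-only, mitochondrial, caspase and p53 lists lie below 0. Those of the anti-apoptotic BCL-2 list and of the death ligand and receptor list lie above it, and those of the 8 genes on both sides.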

How the data were processed

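The deposited table holds 1 normalised signal per gene and library, made by the authors; it is not a raw count. Every value was a whole multiple of its library's smallest step (100% of values, tolerance 0.01), so whole reads were recovered, 1 read being worth 0.814 and 0.836 in the Elf4fl/fl-Villin-Cre and 1.03 and 1.05 in the wild-type libraries. RNA was extracted with Trizol, per the labels, and the processing notes of the submitters name the build mm10. No source used here names the aligner, the counter, the strand setting or the annotation. GENCODE mouse release 21 gave symbols and positions and matched 22358 of 22422 identifiers (99.7%).

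The test was limma (3.58.1, R 4.3.3) on log2(value + 1), genotype being its only term, with a mean-variance trend, over 22050 genes with a mean of at least 1, with 2 residual and 4.06 prior degrees of freedom. Fold changes on this scale understate those of low genes. edgeR (4.0.16) and DESeq2 (1.42.0) were run on the recovered reads as alternatives; limma and edgeR both called 3378 genes in the same direction. The limma fit was tested on simulated data.

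The members and lists were chosen with earlier results of these data known. The named genes were the 8, Elf4, the genes of the ratios, in each list up to 3 past the threshold in each direction by smallest p or, where none passed, the 2 of smallest p, and the 2 nearest to each of the 8. Rnf31, Vdac1, Zbp1, Tnf, Trp53 and Cdkn1a were named after their values were seen, and so were the marker-scaled values, the GGAA core and the edgeR fits without 1 library. Hrk and Sis were not analysed here, nor were protein sequences, and some genes counted in the lists are not reported here.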

Additional observations from a re-analysis of the deposited data

How the results depend on the processing

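Beside the 4-library limma fit, 21 settings were tried. Under pseudocounts of 0.5 and 5, no filter, median scaling and TMM scaling the counts of genes called, of the 8 genes called and of the pathway genes called stayed within 1.5 times. With a minimum mean of 10, edgeR and DESeq2, the pathway genes called higher were 6, 5 and 5, against 3. With library totals 1194 genes were lower and 4114 higher (against 1897 and 1512), 1 and 2 of the 8 (against 2 and 1) and 9 and 18 of the pathway genes (against 15 and 3). Higher genes then made up 77.5% of the calls, against 44.4%, and the median of all genes moved by 0.30 on the log2 scale; relative to it Mlkl was at -1.09, Casp8 at -0.77 and Bax at 0.61, against -1.11, -0.78 and 0.59. Quantile scaling gave 1 and 0 of the 8, and 9 pathway genes lower. Without the variance trend 0 genes were called in either direction, which takes 0 of the 8 and 0 pathway genes (limma; 2762 lower and 3326 higher at an unadjusted p under 0.05); the cause was not tested.

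Without 1 library, limma called 0 genes in each fit, 0 of the 8 and 0 pathway genes included (smallest adjusted p 0.0773 to 0.226), while edgeR called 809 to 2191 genes lower and 476 to 1563 higher, 1 to 3 of the 8 lower and 0 to 1 higher, and 9 to 14 pathway genes lower and 1 to 5 higher. In these fits the lone library is assumed to vary like the other genotype. The directions of Mlkl, Ripk3, Casp8, Cflar and Bax were the same under all 21 settings. Reversed were Ripk1 with library totals (0.14), Fas and Tnfrsf1a in edgeR when replicate 1 of Elf4fl/fl-Villin-Cre was dropped (-0.0030 and -0.0086), and Tnfrsf1a when wild-type replicate 2 was dropped (-0.092 in edgeR and -0.071 in limma); the cause was not tested.

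Whether same-numbered samples were handled together is not stated. With 1 pair of numbers, their deviations correlated at 0.216 over 15351 genes, and a shared batch was not tested. With a replicate block edgeR called 2977 genes lower and 2456 higher, and 25 pathway genes lower and 7 higher; limma with the block called 6 pathway genes higher (1 of the p53 list in each tool), and Ripk3 lower (adjusted p = 0.0175).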
